A study of Mus musculus with 6 samples.

Results

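Nucleolar ribosome biogenesis factors are the proteins that make ribosomal RNA and assemble it with ribosomal proteins in the nucleolus. The set described here holds 55 mouse genes, chosen by symbol with the DSF against DMSO difference of these same libraries already known, and kept where the mean of the 6 deposited counts was at least 10. All 55 symbols were found among the 55536 genes of the table, 0 fell below that minimum, and all 55 passed the low-count filter that left 14318 genes for testing. The member nearest the minimum was Nufip1, with a mean of 543 counts, so no member lay close to it. By the deposited gene ontology annotation 54 of the 55 carried the term nucleolus, against 5.85% of the genes tested, and 40 carried rRNA processing or ribosome biogenesis, against 1.88%.

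RNA was sequenced from primary wild-type OT-I T cells taken from mouse lymph nodes and treated for 2 h with disulfiram (DSF), a thiuram disulfide used against alcohol dependence, or with dimethyl sulfoxide (DMSO), its solvent. The OT-I transgene gives most T cells of these mice 1 receptor, which recognises ovalbumin, and favours CD8 cells. Each group held 3 libraries that are described as biological replicates, with no animal or culture named. The p-values weigh the group difference against variation between libraries, and whether these came from separate animals or cultures is not stated. The labels state neither the dose of DSF, nor the age of the mice, nor whether the cells were stimulated. The deposited columns name no treatment. They were read as DMSO and DSF by the rule given for these data and the group codes DO and DF, and every direction below rests on that reading. The libraries held 18082178 to 21893653 counts. T cell markers were high, with a sum over 8 listed markers, in counts scaled to library size (CPM), of 1839 to 1868 in DMSO and 1648 to 1691 in DSF, and Cd8a, Trac, Cd247 and Cd3g among them were lower with DSF. Markers of B cells (30 to 33.7 and 29.4 to 32.3 CPM in all), myeloid and dendritic cells (20.8 to 24.6 and 21.5 to 23.4) and stromal and endothelial cells (32.9 to 36.7 and 31.5 to 36.9) overlapped between groups, and none passed the test. The natural killer list summed to 45.3 to 47.4 and 36.8 to 39 CPM, with Eomes lower, and the erythroid list reached at most 0.51 CPM. No marker on these lists was at 0 in every library. Their part in the results below was not tested.

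Ribosome production starts in the nucleolus, where RNA polymerase I transcribes a long precursor RNA. Small nucleolar ribonucleoproteins (snoRNPs) modify that precursor, and large sets of processing factors cut and fold it into the small and the large subunit. The pathway is among the costliest of a growing cell, and T cells raise it when they are activated and divide.

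Most of the set was lower after DSF. By edgeR's quasi-likelihood test with Benjamini-Hochberg adjustment over all genes tested, 47 of the 55 members fell at an adjusted p under 0.05, 1 rose and 7 did not pass. Over all genes tested, 11.3% were called lower and 11.6% higher, and among genes at or above the mean CPM of the lowest member 17.4% were called lower and 16% higher. The 3 DSF libraries lay below the 3 DMSO libraries in 50 members, where 17.9% of all genes did so. The changes were small. On the scale of TPM, limma's test called 31 members lower and Rrp12 higher. Over all genes with a mean of at least 1 TPM it called 499 lower and 729 higher, and the share was not worked out. In that test 16 members lost their call: Fbl, Nhp2, Nufip1, Heatr1, Utp18, Pdcd11, Diexf, Wdr3, Nol6, Utp15, Imp4, Noc4l, Urb1, Nip7, Ncl and Npm1. In the test on counts, the median log2 fold change of the members was -0.30 against 0 for all genes tested, the falls that passed ran from -0.10 to -0.66, and 5 members were at -0.50 or less. Summed over all members, the level was 8971, 8691 and 8567 CPM in the DMSO libraries and 7611, 7508 and 7479 CPM in the DSF libraries, a ratio of the means of 0.862. The groups did not overlap in this sum. Npm1 and Ncl carried a large share of it, and without them the ratio was 0.818. Within a group the members varied little, with a median coefficient of variation of 4.16% in DMSO and 2.69% in DSF. In this bulk RNA, fewer cells of a type and less RNA per cell cannot be told apart. Since the members were chosen with this contrast in view, their counts, fold changes and p-values, here and below, describe the set and are no independent evidence of its direction, and nothing is read from the shares over all genes. The authors' deposited table calls 45 members lower and 1 higher at the same threshold, against 7.73% and 8.46% of the genes tested here.

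**Figure D1:**
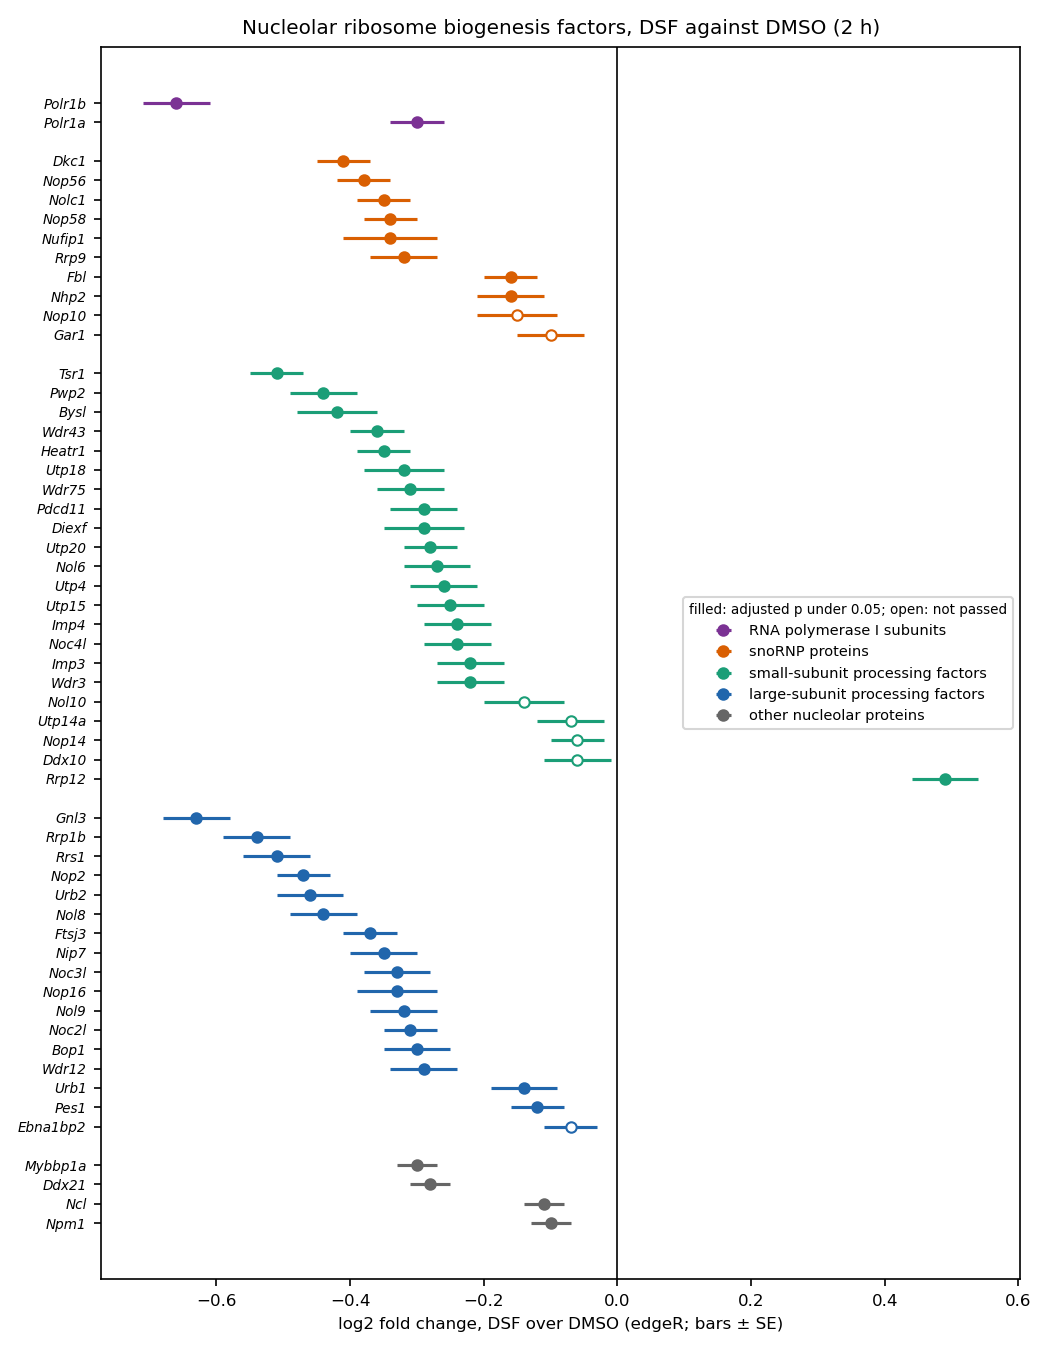
Log2 fold change of each of the 55 members with DSF over DMSO (x axis, edgeR, bars ± SE), grouped and coloured by role, with filled points at an adjusted p under 0.05. All points but Rrp12, at 0.49, lie left of 0, and the lowest are Polr1b at -0.66 and Gnl3 at -0.63.

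Promoter sequences are shown because the members moved together and because MYC and its partner MAX, known activators of ribosome production, bind the E-box CACGTG. RefSeq start-site windows of GRCm38.p6, from 250 bases before to 50 bases after the start, were found for 49 members. CACGTG, which reads the same on both strands, was in the windows of 10 members (20.4%), against 11.7% of tested genes and 8.09% of all genes with a window. The sites below are printed 5′ to 3′ on the strand of the gene with the E-box in capitals. Those of Imp4, Nop2 and Utp18 begin 121, 60 and 20 bases before the start, and those of Pes1, Utp4, Wdr43 and Tsr1 at base 3, 16, 18 and 25 from it.
Imp4 (chr1:34439696-34439725, + strand): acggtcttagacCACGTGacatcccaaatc
Nop2 (chr6:125131811-125131840, + strand): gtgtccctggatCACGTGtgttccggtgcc
Utp18 (chr11:93885769-93885798, - strand): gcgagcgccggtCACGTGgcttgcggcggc
Pes1 (chr11:3963965-3963994, + strand): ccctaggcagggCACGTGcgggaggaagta
Utp4 (chr8:106893643-106893672, + strand): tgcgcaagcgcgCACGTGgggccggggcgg
Wdr43 (chr17:71616220-71616249, + strand): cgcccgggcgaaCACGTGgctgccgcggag
Tsr1 (chr11:74898092-74898121, + strand): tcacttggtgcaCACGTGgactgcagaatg

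The remaining windows with an E-box were those of Mybbp1a, Utp20 and Diexf. All 10 members with an E-box fell, at a median log2 fold change of -0.29, and so did 32 of the 39 members whose window lacked it, at a median of -0.31. Both medians lay close together. Over all genes tested 11.3% were called lower, and the share among those with an E-box was not worked out. As the members were chosen with this contrast known, nothing is read about the E-box from these counts. Of the 6 members with no window 5 fell, and the other was Rrp12, the 1 member that rose. CCGGAAG, the core bound by ETS factors, stood on either strand of 19 windows (38.8%), against 20.7% of tested genes, and the medians with and without it were both -0.31. CGCATGCGC, part of the NRF1 motif, was in 0 of 49 windows and in 4.23% of those of tested genes. The stretches before the starts of Nop2 and Utp18 held both the E-box and CCGGAAG, near each other in Nop2 and toward opposite ends in Utp18, and are shown with these motifs in capitals.
Nop2 (chr6:125131783-125131882, + strand): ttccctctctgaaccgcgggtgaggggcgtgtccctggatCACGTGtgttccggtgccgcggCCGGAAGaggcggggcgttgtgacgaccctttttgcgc
Utp18 (chr11:93885767-93885886, - strand): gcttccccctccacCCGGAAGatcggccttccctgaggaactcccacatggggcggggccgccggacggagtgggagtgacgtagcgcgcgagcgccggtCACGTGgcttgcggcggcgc

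A match is a run of letters and not a measured binding site, and no binding was measured here. In the same libraries Myc was at 107, 116 and 108 CPM in DMSO and at 64.1, 71.1 and 65.2 CPM in DSF, a fall to 0.605 (edgeR's adjusted p = 5.74e-13), and its antagonist gene Mxd1 was at 32, 37 and 34.1 and at 68.7, 60.6 and 66.7 CPM, a rise of 1.90-fold (adjusted p = 1.09e-13). Of 12 genes of the MYC-MAX network 4 fell (33.3%) and 3 rose (25%), where 11.3% of all genes were called lower and 11.6% higher. Besides Myc, its partner gene Max fell to 0.806, Mlxip to 0.808 and Mlx to 0.858, Mxd4 rose 1.17-fold (not called by limma on TPM, adjusted p = 0.157), and Mycl rose from 0.21 to 1.06 CPM, a level close to the limit of detection. Mlx was not called when DMSO library 2 or DSF library 3 was left out (adjusted p = 0.0676 and 0.142), nor by DESeq2 or limma on TPM (adjusted p = 0.0732 and 0.0613). DESeq2 gave Mycl no adjusted p. The part of these changes in the levels of the members was not tested.

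Both RNA polymerase I subunits of the set fell, and Polr1b fell furthest of all members. Polr1b (ENSMUSG00000027395, chromosome 2, 129100995 to 129126594 of GRCm38) encodes the second-largest subunit, which forms the active centre with the largest one. It was at 55.2, 57.7 and 57.6 CPM in DMSO and at 34.9, 37.8 and 35 CPM in DSF, a log2 fold change of -0.66 ± 0.05 (SE, edgeR's adjusted p = 1.3e-11). Its highest DSF library stood well under its lowest DMSO library. Polr1a, the gene of the largest subunit (chromosome 6, 71909053 to 71984935), was at 127, 129.6 and 137 CPM and at 105, 107 and 109 CPM, a fall to 0.811 (adjusted p = 1.85e-06). Per length the levels of both were close in DMSO, at 27.8 ± 2 TPM (transcripts scaled by length and library, mean ± SD, n = 3) for Polr1b and 23.6 ± 1.69 TPM for Polr1a, and in DSF they were 16.7 ± 0.963 and 18.9 ± 0.893 TPM. Other genes of the polymerase I machinery, a list of 13 with further subunits, initiation factors and a termination factor, went both ways. Of these, 6 fell (46.2%) and 2 rose (15.4%), at a median log2 fold change of -0.10, where 11.3% and 11.6% of all genes were called. The subunit genes Cd3eap and Twistnb fell to 0.762 and 0.854, Taf1a, which encodes a subunit of the selectivity factor that places the polymerase at the promoter, rose from 30.1 ± 1.57 to 35.9 ± 1.65 CPM (edgeR's adjusted p = 0.00227), and the termination factor gene Ttf1 rose from 37.5 ± 1.8 to 42 ± 1.31 CPM (adjusted p = 0.0324). Ttf1 lost its call when DMSO library 1, DMSO library 2, DSF library 1 or DSF library 3 was left out (adjusted p = 0.107, 0.0895, 0.108 and 0.0995). It was also not called by DESeq2 or with no filter (adjusted p = 0.135 and 0.0515), nor by limma on TPM, where its log2 fold change was 0.02 (adjusted p = 0.903). Taf1a, Cd3eap and Twistnb lost theirs in limma's test on TPM (adjusted p = 0.111, 0.105 and 0.742).

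Of 10 snoRNP genes 8 fell (80%) and none rose by edgeR's test, where 11.3% of all genes were called lower. Their median log2 fold change was -0.33. The box C/D particles, which guide 2′-O-methylation, are built on NOP56, NOP58 and the methyltransferase fibrillarin. Nop56 was at 153, 148 and 147 CPM in DMSO and at 116, 113 and 115 CPM in DSF, a fall to 0.767 (edgeR's adjusted p = 6.6e-09). Nop58, its paralog, was at 261, 239.7 and 241 CPM and at 204, 189 and 194 CPM, a fall to 0.790 (adjusted p = 4.18e-08). In neither gene did the groups overlap. Fbl, the gene of fibrillarin, went from 145, 156 and 147 CPM to 126, 138 and 136 CPM, to 0.893 (adjusted p = 0.00496), and lost its call without DSF library 1 (adjusted p = 0.0645). Rrp9, which encodes a protein of the U3 particle, fell to 0.802, and Nufip1, whose product helps assemble box C/D particles, to 0.788.

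The box H/ACA particles guide pseudouridylation. Dkc1 (ENSMUSG00000031403, X chromosome, 75095854 to 75109777), the gene of the pseudouridine synthase dyskerin, was at 116, 116 and 117 CPM and at 87.4, 86.6 and 89.2 CPM, a fall to 0.754 (edgeR's adjusted p = 7.03e-09). The libraries of a group lay within 3 CPM of each other. The genes of the other 3 core proteins had fold changes nearer to 1, a difference that was not tested. Nhp2 fell from 92.2 ± 5.28 to 82.4 ± 2.6 CPM (adjusted p = 0.0157), a call lost when DMSO library 1, DSF library 1 or DSF library 2 was left out (adjusted p = 0.099, 0.0803 and 0.0739). Nop10, at 37.1 ± 0.979 and 33.4 ± 0.642 CPM, and Gar1, at 53.9 ± 2.77 and 50.3 ± 0.611 CPM, did not pass (adjusted p = 0.0556 and 0.179), although their groups did not overlap. Nop10 passed with upper-quartile factors (adjusted p = 0.046). Nolc1, which encodes a nucleolar chaperone that binds both kinds of particle, was at 153, 157 and 153 CPM and at 122, 121 and 119.8 CPM, a fall to 0.784. Among 12 further snoRNP and assembly genes 4 fell (33.3%, against 11.3% of all genes) and 0 rose, at a median of -0.08. Snu13, the gene of the fourth core protein of box C/D particles, fell from 122 ± 0.408 to 106 ± 1.53 CPM, and Coil, the gene of the Cajal body protein coilin, to 0.872 (edgeR's adjusted p = 0.0295). Znhit3 fell to 0.846 (adjusted p = 0.037), a call that was lost when DMSO library 1, DMSO library 2, DSF library 2 or DSF library 3 was left out (adjusted p = 0.124, 0.118, 0.19 and 0.121). DESeq2 and limma on TPM called neither Znhit3 (adjusted p = 0.179 and 0.13) nor Coil (adjusted p = 0.145 and 0.0943). Coil lost its call when any library but DMSO library 2 was left out (adjusted p = 0.0643 to 0.0922). D10Wsu102e also passed, at 0.920, and lost its call when DMSO library 3, DSF library 2 or DSF library 3 was left out (adjusted p = 0.0581, 0.095 and 0.114).

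Genes of small-subunit processing fell in 17 of 22 cases (77.3%), 4 did not pass and 1, Rrp12, rose. Over all genes tested, 11.3% were called lower and 11.6% higher. The median log2 fold change of the 22 genes was -0.27. Most of them encode parts of the small-subunit processome, the particle that forms on the precursor while it is being made. Tsr1, which encodes a late maturation factor, was at 163, 159 and 146 CPM in DMSO and at 109, 113 and 106 CPM in DSF, a fall to 0.701 (edgeR's adjusted p = 1.29e-10). Its E-box is among the sites printed above. Bysl, a partner in late small-subunit assembly, fell to 0.749. Pwp2, a processome subunit gene, was at 63.6, 67.1 and 66.5 CPM and at 47.5, 47.3 and 50.6 CPM, a fall to 0.737 (adjusted p = 3.89e-08). Wdr43, the most abundant of the group per length at 105 ± 7.02 TPM in DMSO, was at 187, 180.2 and 165 CPM and at 141, 139 and 134 CPM, a fall to 0.780 (adjusted p = 8.04e-08). The groups did not overlap in any of these genes.

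Heatr1, which links the processome to polymerase I transcription, was at 164, 154 and 162 CPM and at 126, 127 and 123 CPM, a fall to 0.784 (edgeR's adjusted p = 3.34e-08). Its deposited TPM did not follow, with 44.2, 43.6 and 45 TPM in DMSO and 38.7, 37.4 and 52.8 TPM in DSF, where DSF library 3 stood above all others. On that scale Heatr1 did not pass limma's test (adjusted p = 0.83). Of its 7828 exonic bases 155 are shared with Lgals8 on the opposite strand, which also fell, from 68 to 54.1 CPM. The other members of the group that passed were Utp18, Wdr75, Pdcd11, Diexf, Utp20, Nol6, Utp4, Utp15, Imp4, Noc4l, Imp3 and Wdr3, with log2 fold changes from -0.32 to -0.22. Nol10 (50.7 ± 3.73 and 46.2 ± 2.17 CPM), Utp14a (65.1 ± 3.8 and 62.2 ± 3.05), Nop14 (105 ± 4.62 and 101 ± 1.41) and the helicase gene Ddx10 (93.5 ± 5.16 and 89.9 ± 3.96) did not pass. Nol10 passed without DMSO library 3 (adjusted p = 0.0253).

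Rrp12 went against the rest. It encodes a repeat protein needed for maturation and export of pre-ribosomal subunits, and it was at 54, 57.8 and 55.8 CPM in DMSO and at 81, 77.9 and 76.9 CPM in DSF. Every DSF library lay above every DMSO library, as in 17.6% of all genes tested. The rise was 1.41-fold (log2 fold change 0.49 ± 0.05, edgeR's adjusted p = 2.21e-09) and ranged from 0.47 to 0.52 on the log2 scale over all alternatives. TPM gave the same picture, at 15.8, 17.2 and 17 against 24.7, 23.7 and 23.2, and the authors' deposited table gives a log2 fold change of 0.49. Rrp12 (ENSMUSG00000035049) lies on the minus strand of chromosome 19 at 41862851 to 41896173 and shares no exonic base with another annotated gene.

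**Figure D2:**
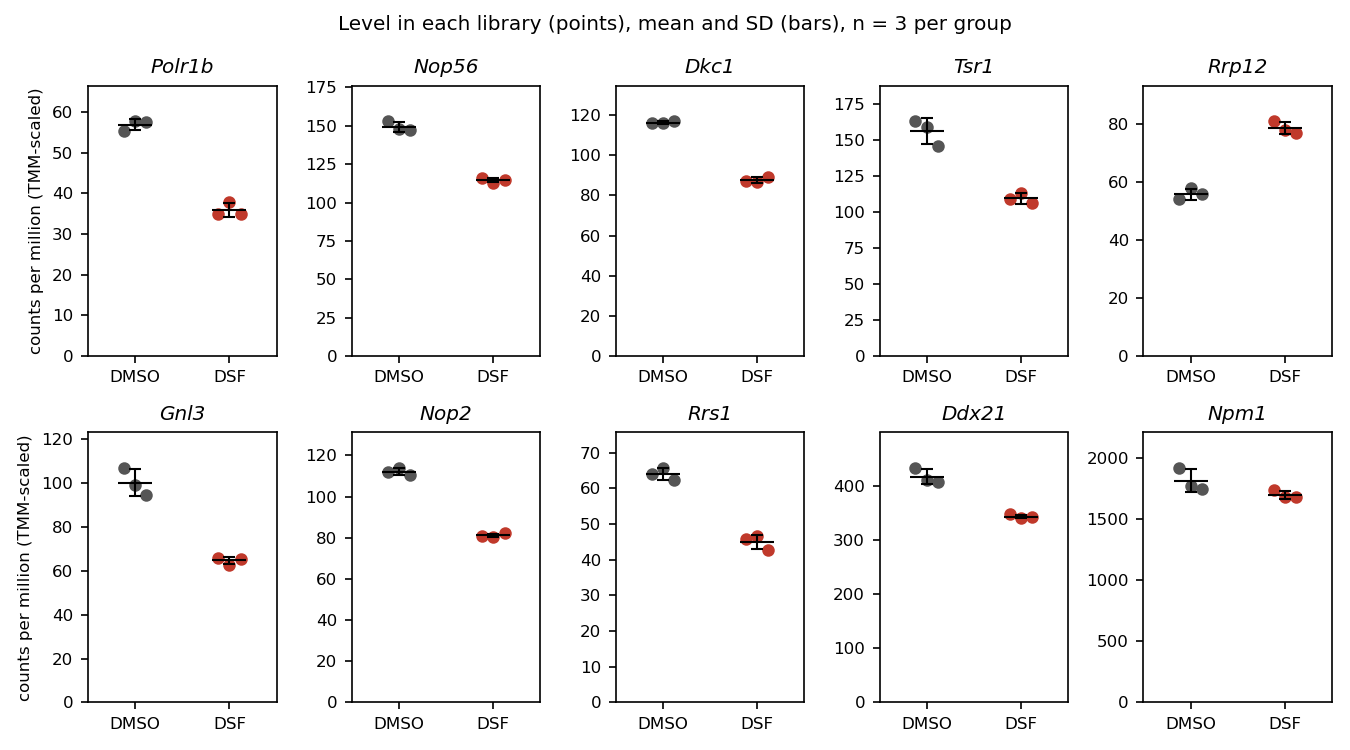
Level of 10 members in each library in TMM-scaled CPM (y axes from 0, 1 panel a gene), with DMSO and DSF libraries as points and the mean and SD as bars. The DSF points lie under the DMSO points in 9 panels and above them for Rrp12.

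Large-subunit factors fell in 16 of 17 cases (94.1%) and none rose by edgeR's test, where 11.3% of all genes were called lower. Their median log2 fold change was -0.33. Gnl3 (ENSMUSG00000042354, chromosome 14, 31012433 to 31019152) encodes nucleostemin, a nucleolar GTPase of proliferating cells. It was at 107, 99.3 and 94.4 CPM in DMSO and at 66, 62.8 and 65.3 CPM in DSF, a fall to 0.646 (edgeR's adjusted p = 1.54e-11). Rrp1b was at 81.9, 75.4 and 79.7 CPM and at 54.5, 56.9 and 51.8 CPM, a fall to 0.688 (adjusted p = 7.7e-10). In both genes a wide gap separated the groups. Rrs1, whose product brings the 5S particle into the large subunit, was at 63.9, 65.8 and 62.4 CPM and at 45.7, 46.6 and 42.7 CPM, a fall to 0.702 (adjusted p = 2.66e-09). Nop2, an RNA cytosine methyltransferase gene with the promoter shown above, was at 112, 114 and 110.4 CPM and at 80.9, 80.5 and 82.1 CPM, a fall to 0.724 (adjusted p = 6.37e-10).

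The PES1, BOP1 and WDR12 proteins form 1 complex, and all 3 genes fell. Bop1 fell to 0.811 and Wdr12 to 0.819, while Pes1, at 124 ± 3.07 and 114 ± 1.22 CPM, fell to 0.918 (edgeR's adjusted p = 0.0297). Whether these changes differ from each other was not tested. Pes1 lost its call when any library but DMSO library 1 was left out (adjusted p = 0.0586 to 0.131), and so did Urb1, which fell to 0.906 (adjusted p = 0.0446, or 0.0756 to 0.25 without the same libraries). DESeq2 called neither Pes1 nor Urb1 (adjusted p = 0.0504 and 0.156), and Urb1 was not called with no filter (adjusted p = 0.0664). Urb2, by contrast, fell to 0.728 and kept its call. Noc2l, Noc3l, Nip7, Nop16, Nol8, Nol9 and Ftsj3 fell by log2 fold changes of -0.31 to -0.44. Ebna1bp2, the most abundant of the group per length over all libraries, was at 109, 113 and 103 CPM in DMSO (mean 108 ± 4.83) and averaged 103 ± 1.13 CPM in DSF. Its groups overlapped and it did not pass (adjusted p = 0.304).

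All 4 genes of other nucleolar proteins fell, where 11.3% of all genes were called lower. Their median log2 fold change was -0.19, and Npm1 and Ncl had the smallest falls among the members that passed. Npm1, the gene of the chaperone nucleophosmin, was the highest member per length at 2219 ± 89.8 TPM in DMSO and 2115 ± 23.1 TPM in DSF, followed by Ncl, the gene of nucleolin, at 845 ± 3 and 785 ± 23.2 TPM. Npm1 was at 1919, 1772 and 1746 CPM and at 1733, 1677 and 1676 CPM, a fall to 0.935 (edgeR's adjusted p = 0.0353), and its highest DSF library came close to its lowest DMSO library. Npm1 lost its call when DMSO library 1, DSF library 2 or DSF library 3 was left out (adjusted p = 0.182, 0.17 and 0.165). Ncl was at 1577, 1516 and 1502 CPM and at 1449.7, 1411 and 1406 CPM, a fall to 0.929 (adjusted p = 0.0098), a call lost when DSF library 2 or DSF library 3 was left out (adjusted p = 0.0761 and 0.0822). Ddx21, a helicase gene of polymerase I and II transcription, was at 433, 411 and 406 CPM and at 347, 339.9 and 342 CPM, a fall to 0.823 (adjusted p = 6.51e-08). Mybbp1a, which encodes a nucleolar transcription regulator, was at 319, 329 and 326 CPM and at 267, 267 and 261 CPM, a fall to 0.815 (adjusted p = 2.21e-08). Exons of Mybbp1a share 131 of 5803 bases with Spns2 on the opposite strand, which rose from 0.904 to 11.7 CPM, against the direction of Mybbp1a. Across the 55 members the mean TPM and the log2 fold change had a Spearman rho of 0.174, a description across genes of the same 6 libraries.

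**Figure D3:**
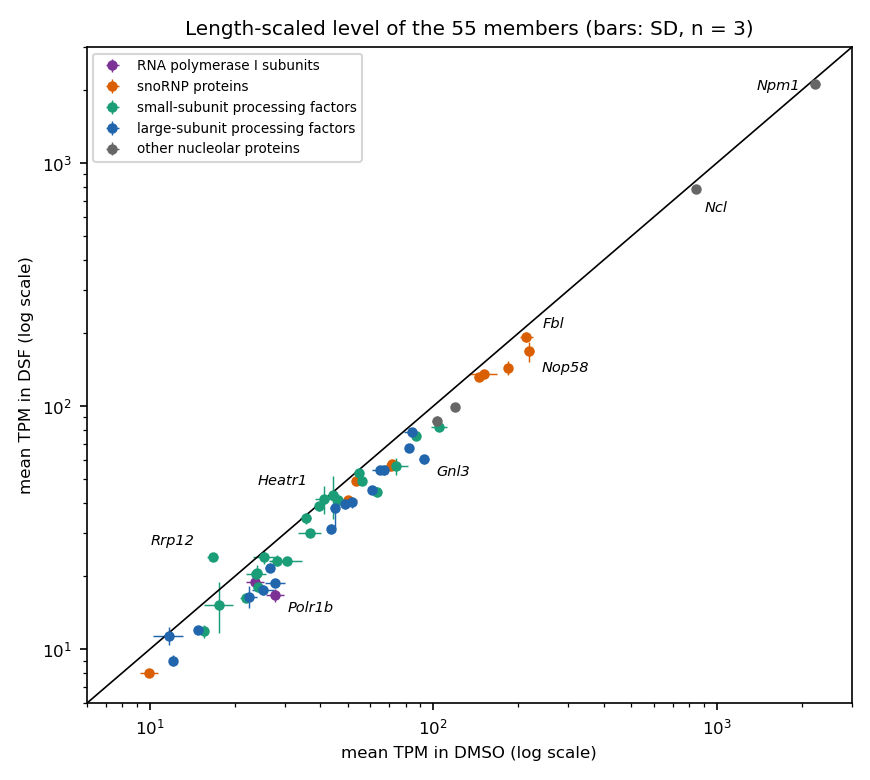
Mean level of each member per length in DMSO (x axis) and DSF (y axis), both in TPM on log scales, with SDs over 3 libraries as bars and the line of equal levels. Most members lie under the line, Npm1 and Ncl close to it, Rrp12 above it, and Heatr1 has a wide bar in DSF.

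Other genes of the same pathway, from lists that hold no member, also leaned down. Of 34 further small-subunit factors 23 fell (67.6%), of 43 further large-subunit factors 25 fell (58.1%), and none of either list rose by edgeR's test, where 11.3% of all genes were called lower. Their median log2 fold changes were both -0.17, nearer to 0 than the -0.30 of the members. Like the members, these lists were chosen with earlier results of these data known. Their counts are a description and no independent evidence of a direction. Among the small-subunit genes Aatf fell to 0.813, Rcl1 to 0.791 and the RNA dimethylase gene Dimt1 from 16.9 ± 2.18 to 11.9 ± 0.312 CPM. Among the large-subunit genes Ppan fell from 71.6 ± 1.34 to 48.8 ± 2.14 CPM (edgeR's adjusted p = 3.48e-10), Nifk to 0.759 and Surf6 to 0.758. Over these lists and the polymerase I and snoRNP lists together, 58 genes fell (56.9%) and 2 rose (1.96%). On the scale of TPM, limma called 20 of them lower and 0 higher. Over all genes of at least 1 TPM it called 499 lower and 729 higher, and the share was not worked out.

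The genes of the cytosolic and the mitochondrial ribosomal proteins were also counted. The cytosolic list was drawn by symbol among genes annotated as protein-coding, so it also takes in like-named genes such as Rpl7l1 and Rps27l. Of its 80 tested genes 5 fell (6.25%) and 0 rose, at a median log2 fold change of -0.03. Those were Rps12 (fold 0.793), Rpl7l1 (0.854), Rpl12 (0.845), Rps27l (0.877) and Rpl5 (0.875), of which Rps12, Rpl7l1 and Rpl12 were not called by limma on TPM (adjusted p = 0.272, 0.143 and 0.0775). Many ribosomal protein genes have near-identical pseudogenes, with which the counting could have split their reads, so their counts are uncertain. The 6.25% called lower was under the 11.3% of all genes and the 17.4% of those at or above the lowest member's mean CPM. The part of split reads in this was not tested. The log2 fold change was below 0 in 73 of the 80, against 7245 of the 14318 genes tested. These genes are abundant, with mean levels from 52 to 3387 CPM. Of 78 genes for mitochondrial ribosomal proteins 23 fell (29.5%, above the 11.3% of all genes) and 0 rose, at a median of -0.09, with Mrps23, Mrpl50 and Mrpl18 at the smallest p (fold 0.830, 0.812 and 0.874). The difference between the members and these lists was not tested.

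**Figure D4:**
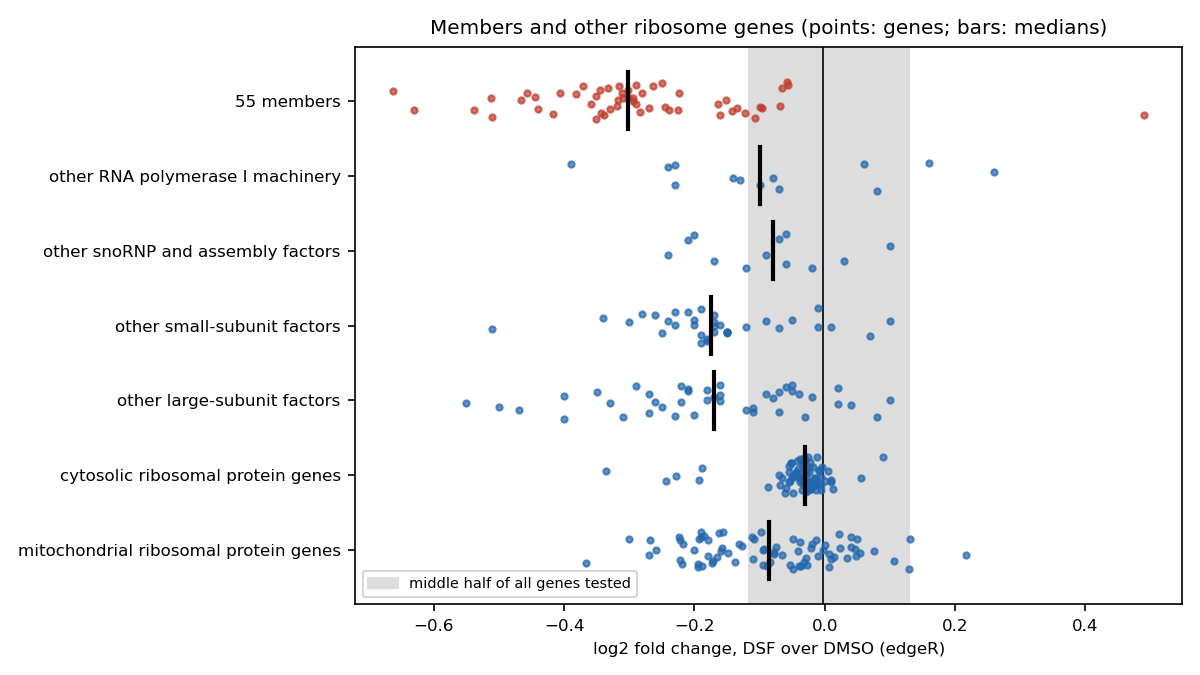
Log2 fold change with DSF over DMSO (x axis, edgeR) of the 55 members and of 6 further lists (1 point a gene), with black bars at the medians and a grey band over the middle 50% of all genes tested. The members centre at -0.30, the further small- and large-subunit factors at -0.17, and the cytosolic ribosomal protein genes at -0.03.

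Several members are also hosts of small nucleolar RNAs, which many vertebrate genes of the translation apparatus carry in their introns. By GENCODE M21, 7 members (12.7%) hold 21 annotated snoRNA genes on their own strand, against 1.65% of all genes tested. They are Nop56 with 5, Nop58 with 4, Wdr43, Gnl3 and Ncl with 3 each, Tsr1 with 2 and Dkc1 with 1. All 7 fell by edgeR's test, as did 47 of all 55 members (85.5%). Whether these hosts differ from the other members was not tested. Ncl lost its call without DSF library 2 or DSF library 3, and in limma's test on TPM (adjusted p = 0.0761, 0.0822 and 0.065). Exons of 22 members share bases with an opposite-strand gene. Whether the counting used the strand is not stated in the labels, which leaves the counts of these members uncertain. In 2 of them, Heatr1 and Mybbp1a, the partner was itself called. The table holds 7 pseudogenes named for a member, which had at most 9.19 counts in a library.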

How the data were processed

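Per the labels' protocols, total RNA went into a SMARTER mRNA library kit. The submitters' processing notes name GRCm38 (mm10). For the aligner, counting program and strandedness, nothing was given in the sources used here. Estimated counts were deposited per gene and library (12.11 to 12.91% of them not whole), beside TPM by the authors, per the file headers. The authors' deposited fold changes are given as a ratio and as log2 values, with p-values. Within 0.0001 TPM, the columns read as DMSO average to the deposited DO mean and those read as DSF to the DF mean in all 55536 genes. The labels leave a further code, DC, unexplained, and it was not analysed here. Of the columns of values per library, 0 were left unused.

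Counts were rounded, filtered with filterByExpr (14318 genes kept), scaled by TMM and tested by robust quasi-likelihood (edgeR 4.0.16, R 4.3.3) on treatment alone. An SE is the size of the log2 fold change divided by the root of F. CPM are TMM-scaled, except the marker sums, which use library totals. Replicate pairs differed by more than counting error (chi-square per degree of freedom 2.218 to 4.279). Alternatives used DESeq2 1.42.0, limma 3.58.1 on log2(TPM + 1) for genes of at least 1 TPM, other scalings, no filter, a replicate block and each library left out. The pipeline was tested on simulated data.

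Members and lists were chosen with earlier results of these data known. Values per library are given, by role, for the 4 called members with the smallest p, the member with the highest mean TPM and any member called against its group, and of other lists the 3 called genes with the smallest p and any called against the majority were named. Further genes were chosen after their values were seen. Positions are from GENCODE M21 and promoter windows from RefSeq. Of 49 members with a window, 22 have a GENCODE transcript that starts at the same base.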

Additional observations from a re-analysis of the deposited data

How the results depend on the processing

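Rrp12 stayed higher and 1 member was called higher under every alternative run, and no called member changed direction. Between 45 and 49 members were called lower with the size factors of DESeq2, upper-quartile factors, no filter, DESeq2 or the replicate block. Over all genes these settings called 1123 to 1904 lower and 1216 to 1925 higher. Of the 48 called members 42 kept the call without any 1 library, and the exceptions were Fbl, Nhp2, Pes1, Urb1, Npm1 and Ncl. Leaving out 1 library gave 42 to 46 members lower, a median of -0.31 to -0.28, and 43 to 52 lower and 1 to 2 higher calls among the other assembly genes (the further polymerase I, snoRNP, small- and large-subunit lists). The same fits called 1231 to 1432 genes lower and 1334 to 1595 higher in all, and the shares were not worked out. The largest change came with limma on log2(TPM + 1). It called 31 members lower at a median of -0.28, 20 of the other assembly genes lower and 0 higher, and 499 genes lower and 729 higher in all, where the count test called 1621 and 1655. The cause was not tested, but the ratio of deposited counts to TPM of a member differed between libraries by up to 1.62-fold (Heatr1), with a median of 1.11. DESeq2 called 45 other assembly genes lower and 1 higher, and with no filter 56 were lower and 1 higher. DESeq2 called 1123 genes lower and 1216 higher.

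Replicate numbers were shared by both groups, but same-numbered libraries correlated only at 0.03488 to 0.05468 in their deviations from the group means, so the numbers were not taken as pairs. Each library correlated best with its own number, a hint from the data and not the design. With the replicate block 49 members were lower and 1 higher, with Nop10 and Nol10 added (edgeR's adjusted p = 0.0282 and 0.0464), 60 other assembly genes were lower and 2 higher, and 1904 genes were lower and 1925 higher in all.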

Other observations

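Besides Heatr1, some members differed between the 2 deposited scales. Wdr3 fell to 0.856 in counts (edgeR's adjusted p = 0.000298) while its TPM averaged 41.3 ± 3.03 in DMSO and 41.5 ± 5.38 in DSF. Wdr12 and Imp4 went the other way, with falls to 0.819 and 0.844 in counts and TPM ratios of 0.696 and 0.761. In all, 53 of the 55 members had a lower mean TPM with DSF, and in 42 the TPM of the 2 groups did not overlap in that direction. The share of all genes with either pattern was not worked out on this scale. Neither count therefore shows how far the members, chosen with this contrast known, differ from other genes.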
